A study of Rattus norvegicus with 8 samples.

Results

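Leukocyte integrins are the adhesion receptors of white blood cells, each made of an α chain and a β chain. The genes described here were 10 chosen by name: the α chains Itgal, Itgam, Itgax, Itgad, Itgae and Itga4, the β chains Itgb2 and Itgb7, and the vessel wall ligands Icam1 and Vcam1. Of these, 9 of 10 were analysed here among 32623 genes, and all 9 passed the filter on low counts that left 11682 genes. Itgad was not analysed here. All 8 libraries came from the epigastric vein limb of a femoral-epigastric arteriovenous fistula (AVF) in Sprague Dawley rats, 21 days after surgery. In 4 rats (3 females and 1 male) the vein had been wrapped in a bilayer nanofiber scaffold loaded with β-aminopropionitrile (BAPN), an inhibitor of the collagen and elastin crosslinking enzyme lysyl oxidase, and in the other 4 (2 females and 2 males) in a vehicle scaffold without the drug. Fistula surgery and a scaffold were therefore common to both groups, the age of the rats was not given in the sources used here, and whole vein segments were sequenced, so each value pools the leukocytes with the vessel wall.

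White blood cells leave the blood by rolling on selectins, arresting through integrins that chemokines have switched on, and crossing the endothelium. The β2 chain (Itgb2, CD18) pairs with αL to form LFA-1, with αM to form Mac-1 and with αX to form the receptor CD11c/CD18, and these bind ICAM-1. The α4 chain pairs with β1 or β7 and binds VCAM-1, and αE pairs with β7 and binds E-cadherin on epithelial cells. In veins exposed to arterial flow, this machinery brings monocytes and lymphocytes into the wall.

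The library totals were 45039451 to 52241007 counts with BAPN and 19548203 to 22442050 with vehicle, so depth separated the groups, with the lowest BAPN total 2.01 times the highest vehicle total. Depth, with whatever in library preparation went with it, and treatment cannot be told apart. The lowest count of any of the 9 genes in any library was 119, so all were well above the counting floor. Defining markers of the tissue were present in every library, with the 5 smooth muscle markers summing to 1398 to 5483 CPM (counts scaled to the same TMM-adjusted library total) and the 6 endothelial markers to 448 to 1468 CPM. The 4 pan-leukocyte markers (Ptprc, Cd53, Coro1a, Laptm5) summed to 1752 to 2704 CPM with BAPN and 771 to 1967 CPM with vehicle. The lowest of these sums was in Vehicle 4, a male, which also held the lowest value of 5 of the 9 genes, against 21.3% of all tested genes. Vehicle 4 had the highest smooth muscle sum (5483 CPM) and the highest fibroblast sum (6275 CPM) of the 8 libraries. The highest value of 5 of the 9 was in BAPN 4, the only BAPN male, against 15.3% of all tested genes.

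Of the 9 genes, Icam1 was called, with higher expression in BAPN-treated veins, and none was called lower (edgeR quasi-likelihood test, Benjamini-Hochberg FDR below 0.05 over all tested genes). Among all tested genes 16.8% were called, 7.5% higher and 9.25% lower, so that 1 call among 9 genes is close to this background. The 9 genes had a median log2 fold change of 0.41, against 0.02 over all tested genes, and 8 of the 9 values were above 0, against 51.6% of all tested genes. At an unadjusted p below 0.05, 2 of the 9 were reached, Icam1 and Itgae, against 35.8% of all tested genes. Icam1 was also the only one of the 9 whose groups did not overlap, against 24.7% of all tested genes, 12.7% in the higher direction and 11.9% in the lower. In bulk tissue, fewer cells of a type and less RNA per cell cannot be told apart.

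**Figure D1:**
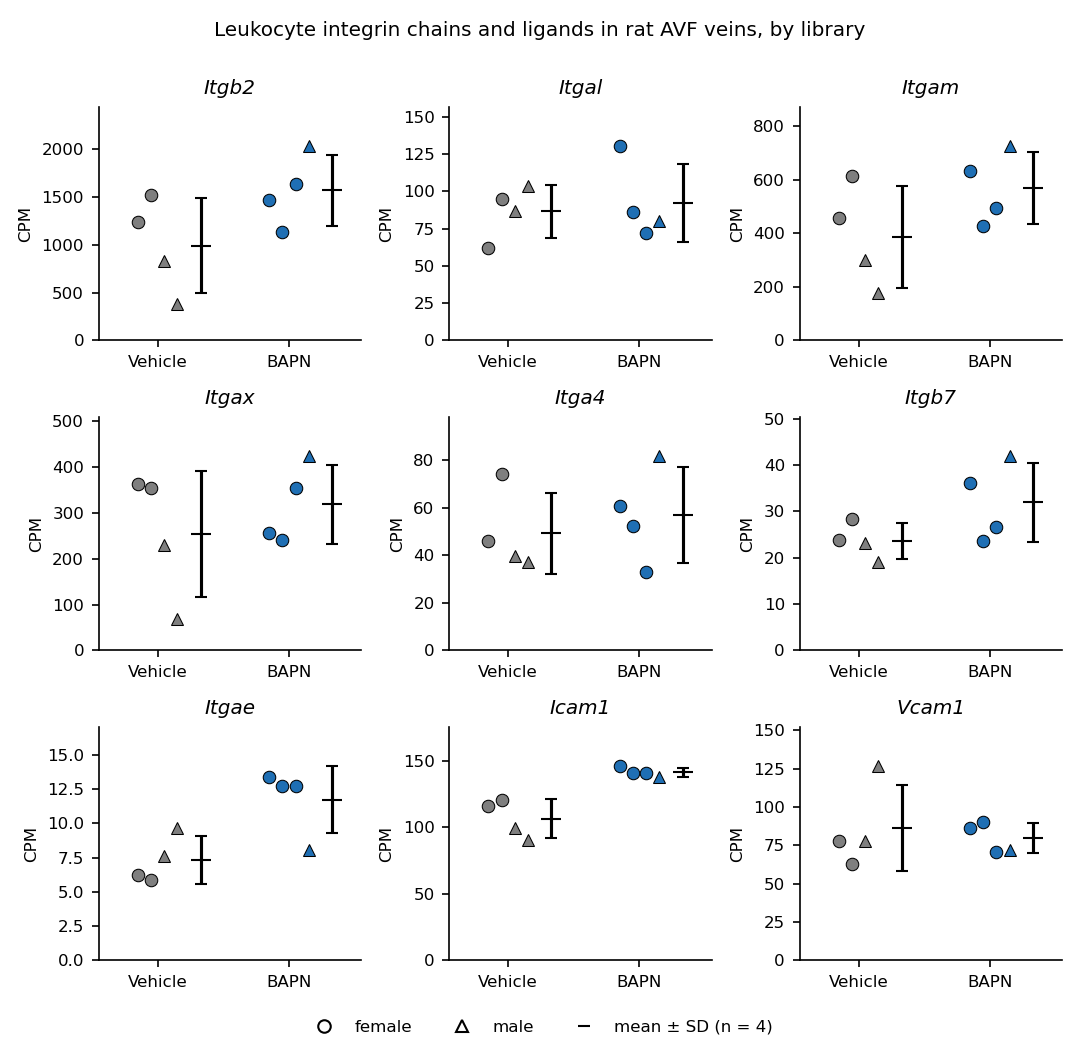
Normalized expression in CPM (vertical axes from 0) of the 9 genes in each library, vehicle in grey and BAPN in blue, circles for females and triangles for males, with the mean and SD of the 4 rats of a group beside them. In Icam1 alone do all 4 BAPN libraries (138 to 146 CPM) lie above all 4 vehicle libraries (90.1 to 121 CPM).

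Icam1 (ENSRNOG00000020679) encodes the ligand of LFA-1 and Mac-1 on endothelium, macrophages and other inflamed cells. With BAPN it was at 146, 141, 141 and 138 CPM in rats 1 to 4, and with vehicle at 116, 121, 99.1 and 90.1 CPM. All BAPN values exceeded all vehicle values, and those of the BAPN rats lay within 1.06-fold of each other. The means were 141 ± 3.38 CPM and 106.5 ± 14.4 CPM (SD, n = 4 each), which gave a log2 fold change of 0.41 (standard error 0.12, edgeR FDR 0.0417, limma-voom 95% interval 0.15 to 0.69). The exact two-sided permutation test gave p = 0.0286, the smallest that 4 rats against 4 allow. The edgeR call was kept in 1 of the 8 fits that left out a rat, that without Vehicle 2 (FDR 0.0293, log2 fold change 0.48), and lost in the other 7, without BAPN 1 (FDR 0.0812), BAPN 2 (0.0777), BAPN 3 (0.0884), BAPN 4 (0.0759), Vehicle 1 (0.0737), Vehicle 3 (0.0859) or Vehicle 4 (0.0837). The log2 fold change stayed between 0.34 and 0.48 in these fits. With sex as a covariate it was 0.37 (FDR 0.0693), with a block for replicate number 0.42 (FDR 0.0846), and among females alone 0.27 (FDR 0.235), where the 3 BAPN females at 141 to 146 CPM were still above the vehicle females at 116 and 121 CPM. Over all tested genes the calls fell from 1957 to 930, 556 and 89 in these fits, in that order.

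**Figure D2:**
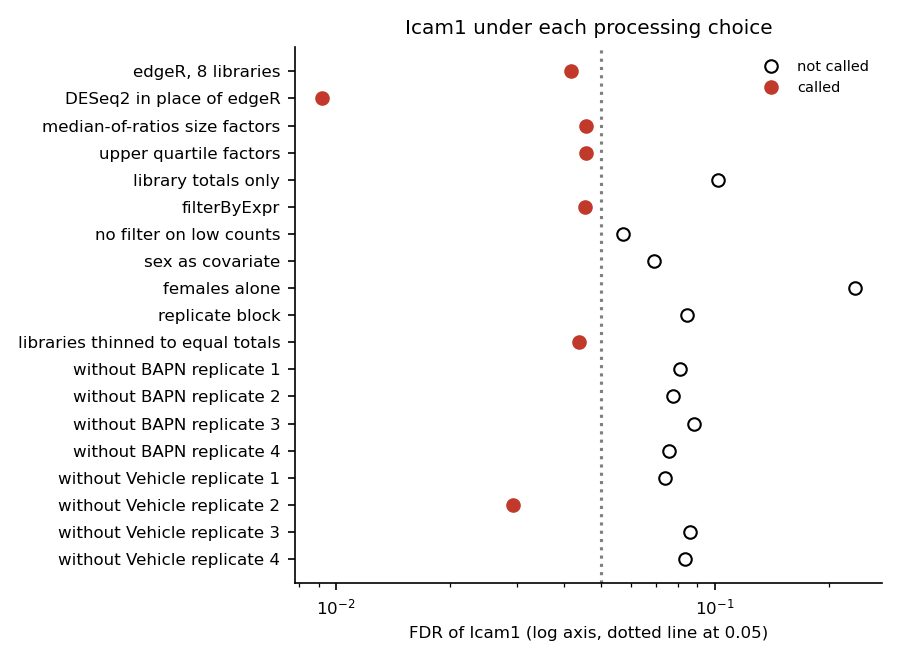
FDR of Icam1 (horizontal log axis, dotted line at 0.05) under the edgeR fit of all 8 libraries, shown first, and under each of 18 alternatives, filled where called. The first fit gave 0.0417, DESeq2 0.00917, and 7 of the 8 fits that left out a rat lay above 0.05.

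Vcam1 (ENSRNOG00000014333), the ligand of α4 integrins on activated endothelium and on some smooth muscle cells and fibroblasts, took the opposite sign. It was at 86.6, 90.3, 70.7 and 72.0 CPM in BAPN rats 1 to 4 and at 77.8, 62.8, 78.1 and 127 CPM in vehicle rats 1 to 4. The groups overlapped throughout, and the highest value belonged to Vehicle 4, the library with the lowest Icam1. The log2 fold change was -0.11 (standard error 0.20, edgeR FDR 0.715, 95% interval -0.53 to 0.39), and without Vehicle 4 it was 0.13 (FDR 0.541), so that its sign rested on that rat. Among females alone it was 0.23 (FDR 0.419).

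Both ligand genes are textbook targets of NF-κB, and the stretches of 250 bases before their RefSeq transcription starts (assembly GRCr8) are shown because Icam1 was called and Vcam1 was not. Capitals mark matches of the κB-type motifs GGAAATTCC and GGGNTTTCC and of the TATA box letters TATAAA. Other κB-like letters were not searched for and stay unmarked, such as gggtttcccc shortly before the marked Vcam1 match. The Icam1 stretch is chr8:27829595-27829844 on the + strand and that of Vcam1 is chr2:206742784-206743033 on the - strand, both written 5′ to 3′ along the gene.
Icam1: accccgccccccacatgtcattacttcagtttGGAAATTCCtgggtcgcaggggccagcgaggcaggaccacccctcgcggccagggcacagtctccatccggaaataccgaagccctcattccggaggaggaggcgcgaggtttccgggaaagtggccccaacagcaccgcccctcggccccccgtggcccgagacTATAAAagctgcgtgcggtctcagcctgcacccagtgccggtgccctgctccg
Vcam1: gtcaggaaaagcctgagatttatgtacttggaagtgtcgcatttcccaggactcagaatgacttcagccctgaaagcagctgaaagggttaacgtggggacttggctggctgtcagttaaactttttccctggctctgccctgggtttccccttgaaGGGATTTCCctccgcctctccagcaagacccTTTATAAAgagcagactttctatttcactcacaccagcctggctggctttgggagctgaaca
The Icam1 stretch holds GGAAATTCC, 218 to 210 bases before the start, and TATAAA 53 to 48 bases before it. The Vcam1 stretch holds a match of GGGNTTTCC, 93 to 85 bases before the start, and TATAAA 60 to 55 bases before it, overlapping a match of the same letters on the other strand. Searched on both strands of the same stretch of 33465 RefSeq genes, GGAAATTCC was found in 0.287%, GGGNTTTCC in 1.35% and TATAAA in 12.9%. Both κB-type motifs were written after these stretches had been read. GAGGAA, the core of sites for the myeloid factor PU.1, was found in 23.3% of all stretches, and among the 7 of the 9 genes with an entry in the table it was found in those of Itgam and Itgae. These matches are a description of letters, not of binding.

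The β2 chain and its myeloid partners followed one another across libraries. Itgb2 (ENSRNOG00000001224) was at 1471, 1131, 1637 and 2032 CPM in BAPN rats 1 to 4 and at 1237, 1514, 831 and 382 CPM in vehicle rats 1 to 4. Both vehicle males were low and the BAPN male was high, while the females of the groups overlapped. The means were 1568 ± 374 CPM and 991 ± 493 CPM (SD, n = 4 each), which gave a log2 fold change of 0.66 (standard error 0.43, edgeR FDR 0.236, 95% interval -0.17 to 1.78). Without Vehicle 4 the log2 fold change was 0.39 (FDR 0.339).

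Itgam (ENSRNOG00000019728), the αM chain CD11b of monocytes, macrophages and neutrophils, was at 632, 426, 496 and 727 CPM in BAPN rats 1 to 4. In vehicle rats 1 to 4 it was at 458, 613, 301 and 176 CPM. Vehicle 4 was again the lowest and BAPN 4 the highest, and the groups overlapped. This gave a log2 fold change of 0.56 (standard error 0.39, edgeR FDR 0.275), which was 0.32 without Vehicle 4 (FDR 0.45) and 0.87 without Vehicle 2 (FDR 0.0893).

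Itgax (ENSRNOG00000036703), the αX chain CD11c of dendritic cells and many tissue macrophages, was at 257, 241, 354 and 425 CPM with BAPN and at 363, 355, 229.5 and 68.8 CPM with vehicle. The vehicle libraries spanned 5.28-fold and the BAPN libraries 1.76-fold. The log2 fold change of 0.33 (standard error 0.53, edgeR FDR 0.613, 95% interval -0.64 to 1.75) was 0.01 without Vehicle 4 (FDR 0.973), 0.55 without Vehicle 1 (FDR 0.463) and 0.53 without Vehicle 2 (FDR 0.43). Without BAPN 4 it was 0.16 (FDR 0.841). The row was taken by its name. RefSeq also lists Itgax as another name of the neighbouring gene Itgad, and how reads shared by these related genes were counted is not given in the sources used here.

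Itgal (ENSRNOG00000017980), the αL chain CD11a of lymphocytes and other leukocytes, did not share this pattern. It was at 130, 85.8, 71.8 and 79.8 CPM with BAPN and at 61.6, 94.5, 86.6 and 103 CPM with vehicle, so that Vehicle 4 held the highest vehicle value. The log2 fold change was 0.09 (standard error 0.21, edgeR FDR 0.789, 95% interval -0.41 to 0.55). It was -0.13 without BAPN 1 (FDR 0.635) and -0.04 without Vehicle 1 (FDR 0.908). Over the 8 libraries, with each group centred on its own mean of log2 CPM, the correlation with Itgb2 was 0.96 for Itgam and 0.97 for Itgax but -0.39 for Itgal. Without Vehicle 4 these values were 0.92, 0.92 and -0.14 over 7 libraries. They are a description, since the libraries share their depth with their group.

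The α4 and β7 chains serve lymphocyte homing. Itga4 (ENSRNOG00000004861) was at 60.8, 52.3, 33.1 and 81.7 CPM with BAPN and at 46.0, 74.2, 39.6 and 37.3 CPM with vehicle. BAPN rats held both the lowest and the highest value. The log2 fold change of 0.21 (standard error 0.30, edgeR FDR 0.63, 95% interval -0.47 to 0.86) was -0.02 without BAPN 4 (FDR 0.979). Its other partner, the widely expressed β1 chain Itgb1, was at 1008 to 1282 CPM with BAPN and 849 to 1242 CPM with vehicle (log2 fold change 0.16, standard error 0.17, edgeR FDR 0.521).

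Itgb7 (ENSRNOG00000012208) was at 36.0, 23.5, 26.5 and 41.9 CPM with BAPN and at 23.9, 28.4, 23.2 and 19.1 CPM with vehicle. The upper BAPN libraries were above all of the vehicle libraries and the lower ones were among them. For Itgb7 the log2 difference was 0.44 (standard error 0.22, edgeR FDR 0.153, 95% interval -0.08 to 0.91). Without BAPN 4 it was 0.28 (FDR 0.35), and with any of the other rats left out it stayed between 0.35 and 0.55.

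Itgae (ENSRNOG00000046639), the αE chain CD103 of tissue-resident CD8 T cells and of some dendritic cells, was the least counted of the 9 genes. It was at 13.4, 12.8, 12.7 and 8.06 CPM in BAPN rats 1 to 4 and at 6.20, 5.86, 7.58 and 9.66 CPM in vehicle rats 1 to 4. The 3 BAPN females were above all other libraries, and the BAPN male lay among the vehicle libraries. The means were 11.7 ± 2.46 CPM and 7.32 ± 1.73 CPM (SD, n = 4 each), which gave a log2 fold change of 0.68 (standard error 0.26, 95% interval 0.09 to 1.26) with an edgeR FDR of 0.0687 and an exact two-sided permutation p of 0.0571. DESeq2 called it (FDR 0.0311), as well as Icam1, while 27.4% of all tested genes were called by DESeq2. The females by themselves gave a log2 fold change of 1.10 (FDR 0.0702). Of the 8 T cell markers 2 were called, both higher, against 7.5% of all tested genes called higher. These were Cd8a (log2 fold change 1.33, standard error 0.33, edgeR FDR 0.0281) and Cd2 (1.39, standard error 0.31, FDR 0.0138). Values were above 0 for 7 of the 8, against 51.6% of all tested genes. Cd8b (0.65, FDR 0.131) was not called, and Cd4 was at -0.07 (FDR 0.811). Of 4 dendritic markers 2 had values above 0, and Zbtb46 fell (-0.80, FDR 0.0161). The part of these cells in the Itgae values was not tested. Cd8a was between 15.8 and 24.0 CPM with BAPN and between 3.64 and 12.1 CPM with vehicle, and its call was lost without BAPN 1, BAPN 2, BAPN 3 or Vehicle 4 (FDR up to 0.0719). Cdh1, the E-cadherin gene, was between 1.08 and 7.93 CPM in all 8 libraries.

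**Figure D3:**
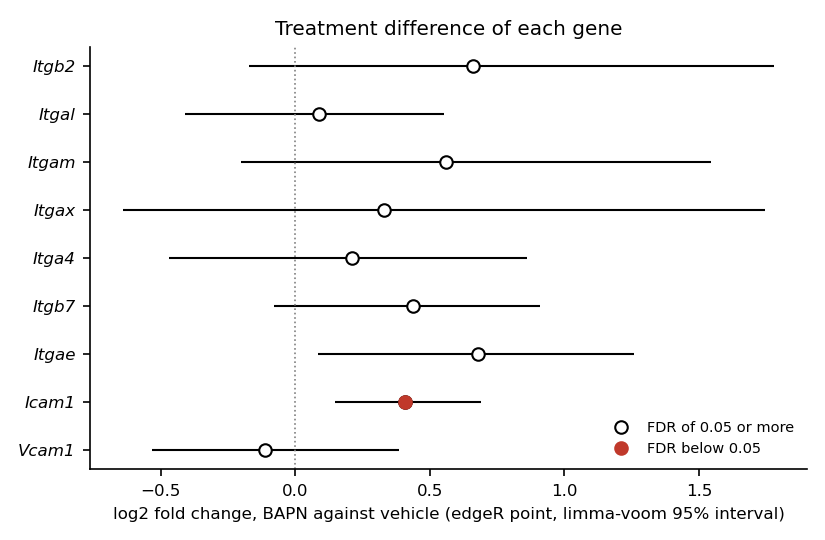
Log2 fold change of BAPN against vehicle for the 9 genes (horizontal axis, edgeR), with the limma-voom 95% interval as a line and a filled red point where the FDR was below 0.05. The red point is Icam1 at 0.41, and the intervals of Icam1 and Itgae are those that lie wholly above 0, before any adjustment for the number of genes.

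The difference between the groups was also taken within each sex, and no difference between the sexes passed the adjusted threshold. For Itgb2 the difference of mean log2 CPM, BAPN minus vehicle, was 0.03 among females (3 against 2 rats) and 1.85 among males (1 against 2 rats). For Itgam these values were -0.05 and 1.66, for Itgax -0.36 and 1.76, for Itga4 -0.31 and 1.09, and for Itgb7 0.12 and 1.00. Itgae showed the reverse order, 1.10 among females and -0.09 among males. A term for treatment by sex, chosen after seeing the data, had an unadjusted p below 0.05 for these 6 of the 9 genes, against 12.3% of all tested genes. None of the 11682 genes reached an FDR below 0.05 for this term in edgeR, and 1442 had an unadjusted p below 0.05. The FDR of the term was 0.265 for Itgam, 0.278 for Itgae, 0.304 for Itgb2, 0.321 for Itga4, 0.375 for Itgax and 0.396 for Itgb7. The pan-leukocyte marker Ptprc differed by 0.12 among females and 1.09 among males (unadjusted edgeR p 0.0461 and FDR 0.394 for the term). The male difference rests on a single BAPN rat, which the model assumes to vary like the others. Icam1 was higher in both sexes, by 0.27 among females and 0.55 among males, with an unadjusted edgeR p of 0.221 for the term. Among females alone the groups did not overlap for 3 of the 9 genes, Itgae and Icam1 higher and Itgax lower, against 47.1% of all tested genes, 25.0% in the higher direction.

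**Figure D4:**
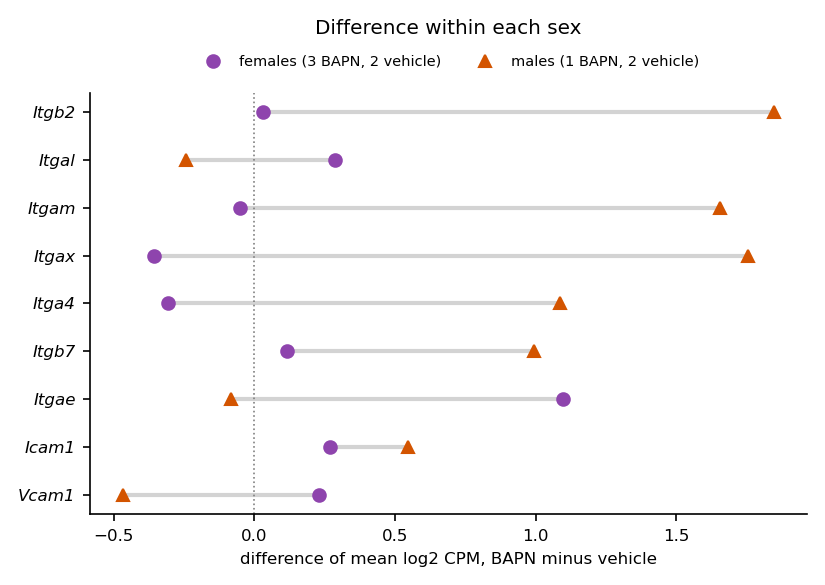
Difference of mean log2 CPM between BAPN and vehicle (horizontal axis) for the 9 genes, circles for females (3 BAPN and 2 vehicle rats) and triangles for males (1 BAPN and 2 vehicle rats), with no error bars because the males have 1 BAPN rat. Itgb2, Itgam and Itgax lie between -0.36 and 0.03 in females and between 1.66 and 1.85 in males, while Itgae lies at 1.10 in females and -0.09 in males.

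Ptprc, which encodes the pan-leukocyte surface protein CD45, served as a reference within each library. It was at 477, 421, 399 and 627 CPM in BAPN rats 1 to 4 and at 326, 482, 359 and 241 CPM in vehicle rats 1 to 4. Ptprc itself was not called (log2 fold change 0.45, standard error 0.24, edgeR FDR 0.189), and its groups overlapped. The log2 ratio of each of the 9 genes to Ptprc in the same library was then compared. The groups overlapped for all 9, while 15.7% of the other tested genes did not overlap on this ratio, 0.556% in the higher direction and 15.1% in the lower. The difference of the mean log2 ratio, BAPN minus vehicle, ran from -0.54 (Vcam1) to 0.33 (Itgb2). Without Vehicle 4 the values were -0.17 for Vcam1 and 0.10 for Itgb2, and the 9 genes ran from -0.30 (Itgax) to 0.51 (Itgae). For Icam1 the mean ratio was -1.74 ± 0.31 with BAPN and -1.69 ± 0.28 with vehicle (SD, n = 4 each), a difference of -0.05 that ran from -0.15 to 0.10 with a rat left out. Measured against Itgb2 in the same library, the 8 other genes differed by -0.88 (Vcam1) to -0.13 (Itgam and Itgae), again with overlap for all 8, against 12.6% of tested genes without overlap, 12.5% in the lower direction. Without Vehicle 4 the 8 genes ran from -0.40 (Itgax) to 0.41 (Itgae), with Vcam1 at -0.27 and Itgam at -0.06, and without BAPN 4 it was 0.18 for Itgae. The log2 ratio of Itgam to Itgb2 was -1.46 ± 0.21 and -1.33 ± 0.16 (SD, n = 4 each).

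Markers of leukocyte types gave the setting of these values, and their part in the results was not tested. Over all tested genes 7.5% were called higher, 9.25% were called lower and 51.6% had values above 0, which is the background for each count of markers. Of the pan-leukocyte markers Cd53, a tetraspanin, rose (log2 fold change 1.06, standard error 0.33, edgeR FDR 0.0376), with its call kept in 2 of the 8 fits that left out a rat (largest FDR 0.0937). Of the 8 macrophage markers, Aif1 rose (log2 fold change 0.80, standard error 0.16, edgeR FDR 0.0155) and 7 did not pass the test. Their sum was 2912 to 3630 CPM with BAPN and 1936 to 3202 CPM with vehicle, lowest in Vehicle 4. Aif1 lost its call without Vehicle 1 (FDR 0.0525). Of the 8 T cell markers 2 were called, both higher, and 7 had values above 0 (median log2 fold change 1.17). Their sums of 380 to 463 CPM with BAPN and 305 to 519 CPM with vehicle were mostly Cd4 (284 to 403 and 266 to 452 CPM, log2 fold change -0.07, FDR 0.811), which rat macrophages also express. The 5 neutrophil markers summed to 26.8 to 63.7 CPM with BAPN and 18.6 to 52.7 CPM with vehicle, with neither of the 2 tested called. The 5 B cell markers summed to 2.02 to 30.0 and 1.28 to 6.70 CPM. Cd79b, the only tested one, was called higher and lost the call in 6 of the 8 fits that left out a rat (largest FDR 0.112). The 5 natural killer markers, with Gzmb at 0 counts in every library, summed to 27.9 to 47.6 and 6.34 to 37.0 CPM, and none of the 4 tested was called. Of 4 dendritic markers (sums of 22.7 to 48.2 and 31.5 to 43.5 CPM) Zbtb46 fell (log2 fold change -0.80, FDR 0.0161, or 0.0525 without Vehicle 1), and of 3 tested mast cell markers Mcpt1l1 fell (-1.64, FDR 0.0429, lost in 6 of the 8 fits that left out a rat), the 4 listed summing to 33.6 to 57.1 and 53.6 to 93.3 CPM.

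The cells that carry Icam1 and Vcam1 were followed by their own markers. All 6 tested endothelial markers had values below 0, and Vwf and Tek fell, against 9.25% of all tested genes called lower and 51.6% with values above 0. Tek, the angiopoietin receptor, was at 41.8 ± 6.79 CPM in BAPN-treated veins against 98.9 ± 23.3 CPM in vehicle veins (SD, n = 4 each), which gave a log2 fold change of -1.24 (standard error 0.19, edgeR FDR 0.0089) and a call that no left-out rat removed. Among females alone Tek was not called (FDR 0.0783). Vwf lost its call in 5 of these fits (largest FDR 0.0966), and its log2 fold change ran from -2.29 to -1.13. The endothelial sum was 448 to 588 CPM with BAPN and 734 to 1468 CPM with vehicle. Of the 5 smooth muscle markers Myh11 (log2 fold change -1.60, FDR 0.0148), Cnn1 (-1.60, FDR 0.0295) and Smtn (-0.95, FDR 0.0254) fell. Leaving out any rat kept the call of Myh11, while Cnn1 lost it in 5 and Smtn in 4 of the 8 fits (largest FDR 0.0782 and 0.0699). The 5 markers had sums of 1398 to 3908 CPM with BAPN and 2860 to 5483 CPM with vehicle. None of the 5 fibroblast markers was called, and their sums were 3171 to 4572 and 3371 to 6275 CPM. Pecam1 was not analysed here. Of the called markers of all cell types, Aif1, Cd2, Zbtb46, Vwf, Tek and Myh11 kept their calls with sex as a covariate. With the replicate block Zbtb46, Tek, Myh11 and Cnn1 kept theirs, and Cd2 (FDR 0.0544), Aif1 (FDR 0.0581) and Cd8a (FDR 0.0659) were among those that did not. Among females alone Cd79b kept its call (FDR 0.0462) and the others lost theirs, with Cd2 at an FDR of 0.0864 and Myh11, Aif1 and Cd8a at 0.111, 0.121 and 0.121. Over all tested genes the calls fell from 1957 to 930 with sex as a covariate. They fell to 556 with the replicate block and to 89 among females alone.

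Of 15 other integrin ligands, 10 were tested, and 2 fell while none rose (median log2 fold change -0.06), against 9.25% lower and 7.5% higher over all tested genes. These were Jam2 and F11r, junctional adhesion molecules, which bind α4β1 and LFA-1 respectively. Jam2 was at 44.4 ± 5.18 CPM in BAPN-treated veins against 102 ± 22.2 CPM in vehicle veins (SD, n = 4 each), which gave a log2 fold change of -1.19 (standard error 0.18, edgeR FDR 0.00829). No BAPN value for Jam2 reached the lowest vehicle value, and leaving out any of the 8 rats kept the call. F11r (-0.52, standard error 0.15, FDR 0.0423) kept its call in 1 of these fits (largest FDR 0.112). The ligands with the most counts were Fn1 (fibronectin, log2 fold change -0.06, FDR 0.905), Spp1 (osteopontin, 1.06, FDR 0.126) and Thy1 (-0.24, FDR 0.567). Spp1 was between 7844 and 15273 CPM with BAPN and between 1658 and 7847 CPM with vehicle, lowest in Vehicle 4. Madcam1, the mucosal ligand of α4β7, had at most 2 counts in any library and Icam4 at most 22, and these were not tested. Fga and Fgb were at 0 counts, and Fgg had at most 8.

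A list of selectins and their ligands, which act before the integrins, also held Esam, an endothelial junction protein that is neither. It gave 3 lower and no higher calls among 8 tested genes (median -0.11), against 9.25% lower and 7.5% higher over all tested genes. The called genes were Cd34 (log2 fold change -0.95, standard error 0.25, edgeR FDR 0.0349), Podxl (-0.99, standard error 0.25, FDR 0.0323) and Esam (-0.94, standard error 0.24, FDR 0.0299), all known on endothelium. For each of them the groups did not overlap, against 11.9% of all tested genes without overlap in the lower direction. Cd34 and Podxl kept their calls in 3 and Esam in 2 of the 8 fits that left out a rat (largest FDR 0.0908, 0.0896 and 0.0689). Of the leukocyte genes in the list, Selplg, which encodes PSGL-1, had a log2 fold change of 0.28 (FDR 0.395) and Cd44 one of 0.36 (FDR 0.237).

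Among 17 genes that regulate integrin activation from inside the cell, 1 rose and none fell (median 0.21), against 7.5% higher and 9.25% lower over all tested genes. The list mixed activators with Flna, Sharpin and Itgb1bp1, which are known to restrain integrins. This was Rap1a, a small GTPase, at 122 ± 18.4 CPM in BAPN-treated veins against 87.5 ± 6.73 CPM in vehicle veins (SD, n = 4 each), which gave a log2 fold change of 0.48 (standard error 0.13, edgeR FDR 0.0355). It kept its call in 1 of the 8 fits that left out a rat (largest FDR 0.0985). Fermt3, the kindlin of blood cells that binds the β2 tail, was at 265 to 395 CPM with BAPN and 127 to 357 CPM with vehicle (log2 fold change 0.44, FDR 0.281), lowest in Vehicle 4 like Itgb2. Tln1, talin, had a log2 fold change of -0.17 (FDR 0.498) and Flna, filamin A, which competes with talin for integrin tails, one of -0.57 (FDR 0.0684).

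The list of signalling genes below leukocyte integrins had 17 tested members, of which 16 had values above 0 and 3 rose (median 0.48). Over all tested genes 51.6% had values above 0 and 7.5% were called higher, with a median of 0.02. The list's sum was 2819 to 3878 CPM with BAPN and 1489 to 3204 CPM with vehicle, lowest in Vehicle 4 and highest in BAPN 4. The pan-leukocyte markers, which share Coro1a with it, had 4 of 4 values above 0 (median 0.54), and their part in the list's values was not tested. The called genes were the kinase Lyn (log2 fold change 0.60, standard error 0.18, edgeR FDR 0.0436), the exchange factor Vav1 (0.55, standard error 0.16, FDR 0.0409) and the adaptor Lcp2 (0.49, standard error 0.15, FDR 0.0459). Lyn and Lcp2 kept their calls in 1 and Vav1 in 2 of the 8 fits that left out a rat (largest FDR 0.112, 0.119 and 0.1). Fcer1g, an adaptor of myeloid receptors, was at 661 to 881 CPM with BAPN and 291 to 615 CPM with vehicle without passing the threshold (0.78, standard error 0.26, FDR 0.0506), and Tyrobp had a log2 fold change of 0.67 (FDR 0.148). Dock2 was not analysed here.

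A list of cytokines, receptors and transcription factors that act on Icam1 and Vcam1 mixed inducers with the restraining genes Klf2, Klf4 and Nfkbia. It gave 2 higher and 1 lower call among 15 tested (median 0.10), against 7.5% and 9.25% over all tested genes. Irf1, an interferon-induced transcription factor, was at 90.8 ± 10.4 CPM in BAPN-treated veins against 61.2 ± 10.2 CPM in vehicle veins (SD, n = 4 each), which gave a log2 fold change of 0.57 (standard error 0.15, edgeR FDR 0.03). Ifngr2, a chain of the interferon gamma receptor, also rose (0.64, standard error 0.19, FDR 0.0457). Irf1 kept its call in 2 and Ifngr2 in 1 of the 8 fits that left out a rat (largest FDR 0.0666 and 0.118). Klf2, a flow-induced transcription factor that restrains adhesion molecule expression in endothelium, was at 72.6 ± 3.84 CPM in BAPN-treated veins against 134 ± 13.0 CPM in vehicle veins (SD, n = 4 each). The fitted log2 difference was -0.88 (standard error 0.10, FDR 0.00413), the groups did not overlap, and leaving out any of the 8 rats kept the call (largest FDR 0.0163). It was also kept with sex as a covariate (FDR 0.0147) and with the replicate block (FDR 0.0346), but not among females alone (FDR 0.0587). The fit of females alone called 89 of the 11682 tested genes. Of the genes with the most counts, Tnfrsf1a (-0.07, FDR 0.721) and Ifngr1 (0.35, FDR 0.0661) were not called. Of the cytokine genes in the list, Tnf had at most 3 and Ifng at most 22 counts in any library, while Il1b was at 13.5 to 27.0 CPM with BAPN and 6.54 to 23.6 CPM with vehicle (log2 fold change 0.60, FDR 0.297).

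The genes whose levels over the 8 libraries, centred within each group, were most like those of Itgb2 included Pi16 (r = 0.99) and Hvcn1 (r = 0.99), and without Vehicle 4 the values were 0.97 and 0.95. Pi16 was at 87.9 CPM in Vehicle 4 and at up to 297 CPM elsewhere, with a log2 fold change of 0.12 (edgeR FDR 0.814). For Itga4 they were Srgap2 (r = 0.97), Fbxw11 (r = 0.97) and Asb13 (r = 0.96). For Vcam1 they were Copa (r = 1.00), Osbpl5 (r = 0.99) and Col8a2 (r = 0.99), all with their highest value in Vehicle 4. They were picked as the largest correlations over all tested genes, rest on few libraries, and are given as a description.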

How the data were processed

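Outflow veins of 8 rats were sequenced by the authors from ribosomal RNA-depleted total RNA with stranded Illumina libraries. The deposited files give, per rat, raw read counts for 32623 Ensembl genes without normalization. The submitters' processing notes name bcl2fastq 2.17, Trim Galore and STAR. The counting tool, strand setting and genome build are not given in the sources used here, so gene coordinates in the files' build are not printed. Condition, replicate number and sex came from the labels, and nothing names a batch.

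The test covered genes whose base mean reached 100 (DESeq2 1.42.0 size factors), as in the study's methods. BAPN was compared with vehicle by edgeR 4.0.16 (TMM factors, quasi-likelihood test, treatment alone) in R 4.3.3, with Benjamini-Hochberg FDR over 11682 genes, whereas the study used a DESeq plug-in. Standard errors and 95% intervals, which are not adjusted, came from limma 3.58.1 (voom), CPM used TMM-adjusted totals, log2 CPM a prior count of 2, and exact permutation tests used all 70 arrangements (scipy 1.17.1). Where a value has no standard error, it comes from the same edgeR fit. The edgeR step was tested on simulated counts for this comparison, where it recovered 165 of 200 genes changed by 1.5 on the log2 scale among 11682, with 8 false calls. Counting error is small at these depths, and p-values measure the spread between rats. Libraries of a group differed beyond counting noise (chi-square per degree of freedom 68.6 to 321).

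The genes described and the lists were chosen with earlier results of these data known. Named were these genes, Ptprc and Itgb1, from each of the 5 context lists the called genes (at most the 4 with the largest change) and the 3 tested genes with the highest mean log2 CPM, and the 3 genes most correlated with Itgb2, Itga4 and Vcam1. Some genes that this rule names are not reported here. Marker lists are given by their sums and called genes. Madcam1, Icam4, Fgg, Fga, Fgb, Gzmb, Cdh1, Tnf, Ifng and Il1b were named outside this rule, after their values were seen. Other scalings, filters, models and each rat left out were alternatives, and the treatment by sex term was added after seeing the data. Promoter sequences are from RefSeq, assembly GRCr8.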

Additional observations from a re-analysis of the deposited data

Results flagged for a closer look

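Of 18 groups of 4 libraries tested (9 genes in 2 groups, log2 CPM), 1 was marked for a sample far from the others. This was Itgae in the BAPN group, where the male, at 8.06 CPM, lay below the females at 12.7 to 13.4 CPM, and the gap to the nearest female was 0.906 of the group's range, above Dixon's 95% critical value for 4 samples. Chance marks about 1 in 20 such groups. The vehicle males, at 7.58 and 9.66 CPM, were on either side of the BAPN male.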

How the results depend on the processing

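None of the 9 genes was called lower under any alternative run. The number called higher was 1 in the fit of all 8 libraries, 2 with DESeq2, and 0 with library totals only, with no filter on low counts, with sex as a covariate, among females alone and with the replicate block. It ranged from 0 to 1 with a rat left out. Over all tested genes the higher calls numbered 876 in the fit of all 8 libraries and 1439 with DESeq2. In the other settings named, in that order, they numbered 508, 716, 389, 35 and 200. Icam1 was called in 5 of 10 other settings and lost its call with library totals only (0.35, FDR 0.102), with no filter on low counts (0.44, FDR 0.0574), with sex as a covariate (0.37), among females alone (0.27) and with the replicate block (0.42). With a rat left out its log2 fold change ran from 0.34 to 0.48. Library totals only shifted the median of all tested genes from 0.02 to -0.04. Thinning all libraries to 19548203 counts kept the Icam1 call (0.41, FDR 0.0438). The cause of the lost calls was not tested.

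Itgae was called by DESeq2 (0.67). Signs turned among females alone for Itgam (-0.048), Itgax (-0.34), Itga4 (-0.30) and Vcam1 (0.23), and with a rat left out for Itgal (-0.13 to 0.19), Itga4 (-0.016 to 0.48) and Vcam1 (-0.24 to 0.13). None of these was called in either fit. Among females alone the differences of the log2 ratios to Ptprc were 0.17 for Itgal, -0.17 for Itgam, -0.48 for Itgax, 0.98 for Itgae, -0.43 for Itga4, -0.09 for Itgb2, 0.15 for Icam1 and 0.11 for Vcam1. Those to Itgb2 were 0.26 for Itgal, -0.39 for Itgax, 1.07 for Itgae, -0.34 for Itga4, 0.09 for Itgb7, 0.24 for Icam1 and 0.20 for Vcam1.

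Among the 67 tested genes of the 5 context lists, 6 were called higher and 6 lower, against 7.5% and 9.25% of all tested genes. The higher calls numbered 11 with DESeq2, 3 with no filter on low counts, 1 with library totals only, with sex as a covariate and among females alone, and 0 with the replicate block. Over all tested genes they numbered 876 in the fit of all 8 libraries. In these settings, in that order, they numbered 1439, 716, 508, 389, 35 and 200. The lower calls numbered 9 with DESeq2, 6 with library totals only and 5 with no filter on low counts. They numbered 2 with sex as a covariate, 0 among females alone and 2 with the replicate block. Over all tested genes the lower calls numbered 1081 in the fit of all 8 libraries. In these settings, in that order, they numbered 1763, 1160, 823, 541, 54 and 356. With a rat left out the higher calls ran from 0 to 11 (11 without Vehicle 2) and the lower calls from 2 to 5. Over all tested genes the higher calls then ran from 150 (without Vehicle 1) to 927 (without Vehicle 2). The lower calls ran from 247 to 1288 in the same fits.

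The replicate numbers did not pair the rats. The correlations of deviations from the group means for rats 1 to 4 were 0.09, -0.27, 0.27 and -0.14, and the block lowered the calls over all tested genes from 1957 to 556. With a rat left out and no block, the calls over all tested genes ranged from 397 (without Vehicle 1) to 2215 (without Vehicle 2). They numbered 745 without BAPN 3.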
